A study of Homo sapiens with 6 samples.

Results

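Cytosolic ribosomal protein genes were the rows of both deposited tables with the biotype protein_coding and a symbol of RPL or RPS with a number and at most a letter A, X or L, together with RPLP0, RPLP1, RPLP2 and RPSA. The pattern leaves out the kinases whose symbols begin with RPS6K. It found 82 of 21519 genes in the co-culture table, 50 of the large and 32 of the small ribosomal subunit. In the knockdown table, which lists genes that carry an m7G peak, it found 54 of 9450 genes, 34 of the large and 20 of the small subunit, and all 54 were among the 82. The pattern also takes in 5 paralogs, RPL3L, RPL7L1, RPL22L1, RPL26L1 and RPS27L, of which 3 were in the knockdown table. The choice used symbols and biotypes and no measured value.

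All libraries came from DLD1, an established human colorectal cancer cell line. The study set DLD1 cells grown with S-CAFs, named in the series title as senescent cancer-associated fibroblasts, against DLD1 cells grown with CAFs. It also set DLD1 cells with a stable knockdown of METTL1 against control cells, with an m7G antibody pull-down (IP) beside the unselected input RNA of each line. S-CAFs-w13 and DLD1-W13CM are library titles, both of wild-type genotype by the labels. DLD1-W13CM was taken as the culture with CAFs because no other RNA-seq library was left, and its title does not say so. The knockdown libraries carry a single construct, sh2, and the control libraries are titled sh-NT. The design text speaks of replications, but each of the 6 groups held 1 library, so nothing below has a replicate check or a test between conditions. Ratios are given with 95% counting intervals from the reads that the FPKM steps imply (exact, Clopper-Pearson), which cover counting error only and not the spread between cultures. FPKM are fragments per kilobase of gene, scaled to the library's fragments.

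The ribosome is built from a large subunit, which joins amino acids and holds the exit tunnel, and a small subunit, which reads the mRNA. Each carries one copy of nearly all of its proteins, so their mRNAs are usually made and translated together. These mRNAs are known as TOP mRNAs: they start with a C followed by an unbroken run of pyrimidines, and the growth-controlled kinase mTOR and the cap-binding protein LARP1 regulate their translation through it. 7-Methylguanosine (m7G) is the base of the mRNA cap and also occurs inside tRNA, rRNA and mRNA, where METTL1 with its partner WDR4 is one of the enzymes that make it. Whether the cap was removed before the pull-down was not given in the sources used here.

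Starts of 66 of the 82 genes were found in the RefSeq promoter sequences (GRCh38.p14). A C at the listed start followed by at least 4 more C or T was found at a start of 29 of 41 large subunit genes (70.7%) and 18 of 25 small subunit genes (72.0%), against 5.14% of 27305 genes of all kinds in the same table. Looked for within 5 bases of the start, the tract was found in 82.9% of large and 80.0% of small subunit genes, against 25.2% of all genes. Only the transcribed strand was searched. A match describes these letters and is not evidence of use as a start. The windows below run from 10 bases before the listed start to 20 bases from it, 5′ to 3′ on the gene's strand, with the tract in capitals. They are those of members whose values are described below, first 8 with a tract and then 3 paralogs without one.
RPL28 (chr19:55385922-55385951, plus strand): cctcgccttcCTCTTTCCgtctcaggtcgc
RPL37A (chr2:216498834-216498863, plus strand): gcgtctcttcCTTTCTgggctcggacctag
RPL35 (chr9:124861938-124861967, minus strand): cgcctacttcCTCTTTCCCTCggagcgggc
RPL35A (chr3:197950180-197950209, plus strand): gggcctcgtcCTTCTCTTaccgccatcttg
RPS3A (chr4:151099618-151099647, plus strand): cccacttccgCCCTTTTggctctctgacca
RPS16 (chr19:39435930-39435959, minus strand): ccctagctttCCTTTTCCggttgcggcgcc
RPS24 (chr10:78033853-78033882, plus strand): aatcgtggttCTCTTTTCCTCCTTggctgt
RPS25 (chr11:119018324-119018353, minus strand): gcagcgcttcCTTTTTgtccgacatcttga
RPL7L1 (chr6:42879606-42879635, plus strand): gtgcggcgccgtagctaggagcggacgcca
RPL26L1 (chr5:172958870-172958899, plus strand): ggcggcggccacaaacccgcaggcacgccg
RPS27L (chr15:63157458-63157487, minus strand): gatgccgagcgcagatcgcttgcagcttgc
RPL22L1 was the one paralog with a tract at its listed start, 6 bases long. The longest in the set was that of RPL39, 19 bases.

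The recovered library sizes were 6215550 fragments for S-CAFs-w13, 6337930 for DLD1-W13CM, 11625200 for knockdown input and 10454200 for control input. METTL1 itself had 3.28 FPKM in knockdown input, against 5.80 FPKM in control input, 1.77-fold lower (1.37 to 2.29). In the co-cultures it had 1.78 FPKM in S-CAFs-w13, against 4.82 FPKM in DLD1-W13CM, 2.71-fold lower (1.75 to 4.29). WDR4 had 15.6 FPKM in knockdown input and 13.03 FPKM in control input, and 3.17 FPKM in S-CAFs-w13 and 4.32 FPKM in DLD1-W13CM. All 8 colon epithelium markers looked for were above the 1 FPKM filter in the co-culture table, and 7 of 14 fibroblast markers were listed there, with a summed level of 5.33 FPKM in S-CAFs-w13 and 5.67 FPKM in DLD1-W13CM. FN1 and ACTA2 made up most of that sum and had the lower value in S-CAFs-w13 (the interval of ACTA2 holds 1), and the other 5 had the higher value there, each under 1 FPKM. Intervals lay above 1 for PDGFRB, with 0.564 FPKM in S-CAFs-w13 and 0.0221 FPKM in DLD1-W13CM (ratio 25.5, 4.17 to 1047), COL6A1, with 0.331 and 0.0295 FPKM in that order (11.2, 1.63 to 483), and COL1A1, with 0.229 and 0.0482 FPKM (4.76, 1.33 to 25.8). The part of fibroblast RNA in the co-culture results was not tested. None of the fibroblast markers was in the knockdown table.

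In the co-culture libraries ribosomal protein mRNAs ranked among the more abundant transcripts. The 49 large subunit genes that passed a mean of 1 FPKM had a median of 77.0 FPKM in S-CAFs-w13 and 66.0 FPKM in DLD1-W13CM, and the 32 small subunit genes 75.4 and 61.3 FPKM in the same order of libraries, against 4.86 and 4.85 FPKM over all 14739 genes that passed. Summed, the members made up 2.34% of all FPKM in S-CAFs-w13 and 1.88% in DLD1-W13CM. RPL3L, the muscle form of RPL3, did not pass, with 1 read in each library.

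Levels spanned more than 2 orders of magnitude within each subunit. Of the large subunit, RPL13A had 356 FPKM in S-CAFs-w13 and 256 FPKM in DLD1-W13CM. RPL12 had 363 FPKM in S-CAFs-w13 and 241 FPKM in DLD1-W13CM. RPLP0, the base of the stalk that recruits elongation factors, had 306 FPKM in S-CAFs-w13 and 237 FPKM in DLD1-W13CM. These were the highest of their subunit. At the low end RPL36A had 2.52 FPKM in S-CAFs-w13 and 2.55 FPKM in DLD1-W13CM, RPL17 had 3.52 and 2.56 FPKM, and RPL26 had 9.96 and 11.6 FPKM.

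The small subunit was led by RPS2, a protein of the mRNA entry side, with 629 FPKM in S-CAFs-w13 and 462 FPKM in DLD1-W13CM. RPS12 followed with 361 FPKM in S-CAFs-w13 and 298 FPKM in DLD1-W13CM. RPS6, the substrate of the S6 kinases, had 274 FPKM in S-CAFs-w13 and 231 FPKM in DLD1-W13CM. The lowest were RPS27L with 1.06 FPKM in S-CAFs-w13 and 1.24 FPKM in DLD1-W13CM, RPS10 with 1.18 and 2.69 FPKM, and RPS29 with 6.44 and 6.33 FPKM. RPS10, RPL17 and RPL36A overlap the annotated read-through genes RPS10-NUDT3, RPL17-C18orf32 and RPL36A-HNRNPH2, which could take part of their reads. The lengths that the FPKM steps imply ran from 582 bases for RPL26L1 to 9743 bases for RPS29, so an order of levels by FPKM depends on them. They are the smallest that the values allow. The m7G peak of RPL26L1 held 597 bases, so its true length and reads may be larger.

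**Figure D1:**
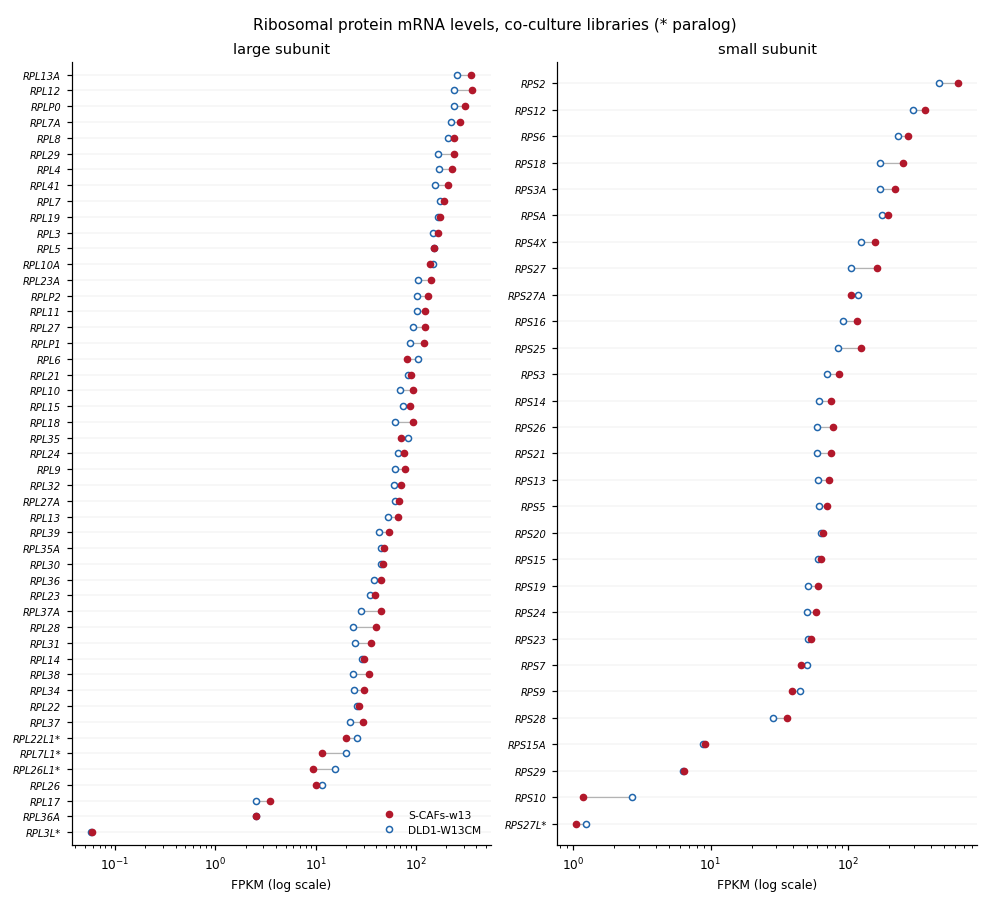
FPKM (log scale) of ribosomal protein genes in S-CAFs-w13 (filled red) and DLD1-W13CM (open blue), large subunit left and small subunit right, ordered by the mean of both libraries; stars mark paralogs. The filled point lies to the right for most genes, and the paralogs lie near the bottom, with the filled point to the left for RPL22L1, RPL7L1, RPL26L1 and RPS27L.

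Copies of these genes add a limit to single values. The co-culture table lists 207 pseudogenes of ribosomal protein genes apart, 115 of them at a mean of 1 FPKM or more and 14 at 10 FPKM or more. RPL9P9 had 237 FPKM in S-CAFs-w13 and 181 FPKM in DLD1-W13CM, above its parent RPL9 with 77.0 FPKM in S-CAFs-w13 and 62.2 FPKM in DLD1-W13CM. RPS28P7 had 101 FPKM in S-CAFs-w13 and 75.9 FPKM in DLD1-W13CM, also above its parent RPS28 with 35.8 and 28.4 FPKM in that order. RPS2P5 and RPSAP15 reached 189 and 73.1 FPKM in S-CAFs-w13, below RPS2 and RPSA. Reads of near-identical copies can be split between parent and copy, so the values of these parents are uncertain. Over the 14 copies at 10 FPKM or more, 10 were higher in S-CAFs-w13 and the median log2 ratio was 0.23.

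Between the co-cultures, most ribosomal protein mRNAs of both subunits were somewhat higher in S-CAFs-w13 and the paralogs were lower. On the log2(FPKM + 1) scale the large subunit had a median difference of 0.24 with 41 of 49 genes above 0, and the small subunit a median of 0.24 with 27 of 32 genes above 0. Over all 14739 genes the median was 0.02 and 52.3% were above 0. In bulk RNA, fewer cells of a type and less RNA per cell cannot be told apart.

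On the log2(FPKM + 1) scale no member passed 2-fold higher in either subunit, where 9.08% of all genes did, and no member passed 2-fold lower, where 7.92% did. By the plain FPKM ratio RPS10, a low gene, was past 2-fold lower. The counting interval of the FPKM ratio lay above 1 for 33 of 49 large and 21 of 31 small subunit genes, against 28.8% of 14477 genes with an interval. It lay below 1 for 5 large and 4 small subunit genes, against 25.9% of all. The differences were small, and the members' many reads, up to 9439 per library, made many of them larger than counting error.

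The size of the shift depends on the scaling, and so do the ratios of single genes below, which are on the deposited FPKM. Relative to the median of all genes it was 0.22 for each subunit on the deposited FPKM. On the authors' deposited log2 fold changes, which lie lower by 0.14 over all genes, it was again 0.22 for each, with 33 of 49 and 21 of 32 genes above 0. After both libraries were rescaled without the mitochondrial genome, which moved the median of all genes by -0.17, the subunits lay 0.17 above that median, with 39 of 49 and 22 of 32 genes above it. Against 0 on that scale, 27 of 49 and 17 of 32 genes were higher in S-CAFs-w13. The part of the mitochondrial transcripts in the shift was not tested.

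RPL28 had the highest ratio of the large subunit, with 39.6 FPKM in S-CAFs-w13 and 23.7 FPKM in DLD1-W13CM, 1.67-fold higher (1.55 to 1.81). RPL37A had 44.4 FPKM in S-CAFs-w13 and 28.4 FPKM in DLD1-W13CM, 1.56-fold higher (1.45 to 1.68). In each of these the S-CAFs-w13 library was the higher one beyond counting error.

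All 3 stalk proteins were higher in S-CAFs-w13. RPLP0 was 1.29-fold higher in S-CAFs-w13 (1.24 to 1.33). RPLP1 had 122 FPKM in S-CAFs-w13 and 87.8 FPKM in DLD1-W13CM, 1.38-fold higher (1.30 to 1.47). RPLP2 had 131 FPKM in S-CAFs-w13 and 103 FPKM in DLD1-W13CM, 1.27-fold higher (1.18 to 1.37). RPL5 and RPL11, which carry the 5S rRNA and bind the p53 regulator MDM2, did not share a ratio: RPL11 had 123 FPKM in S-CAFs-w13 and 103 FPKM in DLD1-W13CM, 1.19-fold higher with an interval above 1, and RPL5 had 151 FPKM in both, with a ratio of 1.00 (0.949 to 1.06). On the authors' deposited log2 fold changes RPL11 had 0.10 and RPL5 -0.14, so their distances from no change depend on the scaling.

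In the small subunit RPS27, a zinc-finger protein, had 162 FPKM in S-CAFs-w13 and 105 FPKM in DLD1-W13CM, 1.54-fold higher (1.39 to 1.71). RPS25, needed for some internal ribosome entry sites, had 124 FPKM in S-CAFs-w13 and 84.0 FPKM in DLD1-W13CM, 1.47-fold higher (1.34 to 1.61). RPS18 had 250 FPKM in S-CAFs-w13 and 170.0 FPKM in DLD1-W13CM, 1.47-fold higher (1.39 to 1.55). All 3 intervals lie clear of 1. RPS2, the most abundant member, was 1.36-fold higher (1.32 to 1.41). RPS6 was 1.18-fold higher (1.14 to 1.24), and RPSA, also known as the laminin receptor precursor, 1.12-fold higher (1.07 to 1.17). On the authors' deposited log2 fold changes RPS6 had 0.10 and RPSA 0.02.

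A few core members went the other way. RPL6 had 81.8 FPKM in S-CAFs-w13 and 106 FPKM in DLD1-W13CM, 1.29-fold lower (1.22 to 1.36), and RPL35, at the mouth of the exit tunnel, 70.5 and 83.4 FPKM in that order, 1.18-fold lower (1.07 to 1.31). In the small subunit RPS27A, made as a fusion with ubiquitin, had 104 FPKM in S-CAFs-w13 and 119 FPKM in DLD1-W13CM, 1.14-fold lower (1.07 to 1.21), and RPS9 39.1 and 44.7 FPKM in that order, 1.14-fold lower (1.05 to 1.24). RPS7 was 1.11-fold lower (1.04 to 1.19). RPS10 showed the widest gap, 2.29-fold lower (1.13 to 4.94), but rested on 12 reads in S-CAFs-w13 and 28 in DLD1-W13CM. With these exceptions and RPL10A, RPL26 and RPL36A, whose intervals hold 1, every core member measured had the higher FPKM in S-CAFs-w13.

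All 4 measured paralogs were lower in S-CAFs-w13. RPL7L1 had 11.6 FPKM in S-CAFs-w13 and 20.1 FPKM in DLD1-W13CM, 1.73-fold lower (1.56 to 1.93), while its relative RPL7 had 191 FPKM in S-CAFs-w13 and 173 FPKM in DLD1-W13CM, 1.104-fold higher (1.05 to 1.16). On the authors' deposited log2 fold changes RPL7L1 had -0.94 and RPL7 -0.00089. RPL26L1 had 9.40 FPKM in S-CAFs-w13 and 15.5 FPKM in DLD1-W13CM, 1.64-fold lower (1.06 to 2.59), on 34 and 57 reads, the smallest whole reads that the values allow. Its parent RPL26 was 1.17-fold lower with an interval that holds 1 (0.936 to 1.46).

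RPL22L1, which can replace RPL22 in the ribosome, had 19.99 FPKM in S-CAFs-w13 and 25.8 FPKM in DLD1-W13CM, 1.29-fold lower (1.11 to 1.51). RPL22 had 27.1 FPKM in S-CAFs-w13 and 25.5 FPKM in DLD1-W13CM, with an interval that holds 1 (0.961 to 1.17). RPS27L, a known p53 target, was 1.18-fold lower with an interval that holds 1 (0.824 to 1.69), beside the higher RPS27. Relative to all genes the median of the 4 paralogs was -0.53, against 0.25 for the 77 core members, and none of the 4 lay above the median of all genes under any of the 4 scalings compared.

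**Figure D2:**
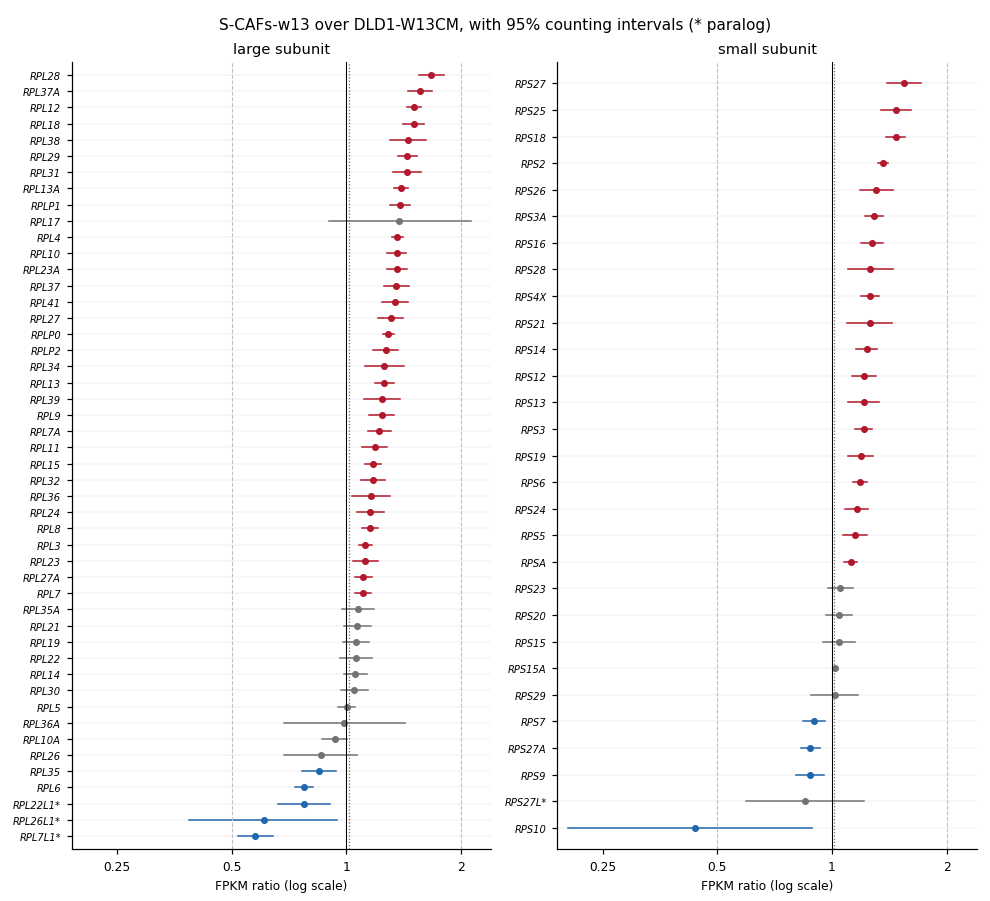
FPKM ratio (log scale) of S-CAFs-w13 over DLD1-W13CM for measured members, large subunit left and small subunit right, with 95% counting intervals as lines; red marks intervals above 1, blue below 1 and grey those that hold 1 or could not be given. The solid line is no difference, the dotted line the median of all genes and the dashed lines 2-fold; most members lie between 1 and 1.67, and the paralogs (stars) lie at the left.

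Genes that work with the ribosomal proteins were counted from lists chosen with earlier results of these data known. The 2-fold limit was again taken on the log2(FPKM + 1) scale, where 9.08% of all genes passed it higher and 7.92% lower. Of the ribosomal proteins outside the symbol pattern, among them FAU, RACK1 and RPL36AL, 3 of 4 were above 0 with a median of 0.13. Other TOP mRNAs, such as those of elongation factors and of host genes of small nucleolar RNAs, were above 0 in 18 of 28 with a median of 0.23. Past 2-fold higher were EEF1A2 with 51.5 FPKM in S-CAFs-w13 and 7.31 FPKM in DLD1-W13CM, SNHG8 with 24.9 FPKM and 5.98 FPKM, and EIF2A with 53.4 FPKM and 26.0 FPKM in the same order.

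Ribosome assembly factors, the nucleolar proteins that build the particles, lay on the other side. Only 13 of 58 were above 0, and their median was -0.39. Of the 58, 9 were past 2-fold lower, against 7.92% of all genes, and none past 2-fold higher, against 9.08%. NOP56, a core protein of the particles that methylate rRNA, had 7.57 FPKM in S-CAFs-w13 and 33.9 FPKM in DLD1-W13CM, 4.47-fold lower (3.90 to 5.15). Its partner NOP58 had 12.9 FPKM in S-CAFs-w13 and 42.5 FPKM in DLD1-W13CM, 3.30-fold lower (2.88 to 3.80), and nucleolin (NCL) 48.9 FPKM and 127 FPKM in that order, 2.59-fold lower (2.47 to 2.73). The others past 2-fold were DDX56, DKC1, IMP3, LTV1, MRTO4 and UTP4. By the plain FPKM ratio EBNA1BP2, HEATR3, UTP14A and UTP15 were also past 2-fold lower. Under the scalings compared, 12 or 13 of the 58 lay above the median of all genes.

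Of 16 RNA polymerase I and rDNA factors, 6 were above 0 with a median of -0.39, with TAF1D past 2-fold higher (39.3 FPKM in S-CAFs-w13 and 11.1 FPKM in DLD1-W13CM) and POLR1A past 2-fold lower (5.64 and 12.5 FPKM in that order). Of 15 regulators of TOP mRNAs, 7 were above 0 with a median of -0.05, and EIF4EBP2, a repressor of cap-dependent initiation, was past 2-fold lower with 6.63 FPKM in S-CAFs-w13 and 21.8 FPKM in DLD1-W13CM. By the plain FPKM ratio the polymerase I factors ZNRD1 and TAF1A were also past 2-fold higher. UBTF of the same list and the regulator RPTOR were past 2-fold lower by that ratio. Within the ribosomal protein genes, the 47 with a TOP tract at a listed start had a median of 0.29 with 40 above 0, and the 19 measured genes without one 0.16 with 13 above 0. Looked for within 5 bases of the start, 54 of the 66 genes had a tract, so this split depends on the listed start. The genes without a tract at a listed start included the paralogs RPL7L1, RPL26L1 and RPS27L. Those with one included the paralog RPL22L1, and all 4 paralogs were lower in S-CAFs-w13. The part of the paralogs in this difference was not tested.

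After METTL1 knockdown, ribosomal protein mRNAs in the input RNA differed little, and more of them were lower than higher. The 34 large subunit genes had a median of 86.6 FPKM in knockdown input and 87.0 FPKM in control input, and the 20 small subunit genes 119 and 123 FPKM in that order. The median log2 ratio was -0.06 for each subunit, with 12 of 34 and 7 of 20 genes above 0, against a median of 0.01 and 51.2% above 0 over 8400 genes. Rescaled without the ribosomal protein genes, which moved the median of all genes by -0.06, the medians were -0.13 for each subunit, with 3 of 34 and 4 of 20 genes above 0, against -0.06 and 40.3% over all genes. Relative to the median of all genes the subunits then lay at -0.07 and -0.08, against -0.06 and -0.07 on the deposited FPKM. Most of the move under this rescaling was thus shared by all genes and is not particular to the members. On the authors' deposited log2 fold changes 9 of 34 and 5 of 20 were above 0. On the same scale none of the 54 members passed 2-fold higher, where 0.429% of all genes did, or 2-fold lower, where 0.56% did. The table lists only genes with an m7G peak, so the other 28 members were not analysed in this comparison.

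Counting intervals lay below 1 for 14 large and 8 small subunit genes, against 23.1% of 8344 genes, and above 1 for 4 of each subunit, against 24.8%. The members' median was 88.2 FPKM in knockdown input, against 8.32 FPKM over all measured genes. Their many reads, up to 41068 per library, let intervals exclude 1 at small differences, so these shares are of unlike depth. Summed, the members made up 3.61% of all FPKM in knockdown input and 3.97% in control input. Their own sum was 9089 FPKM in knockdown input and 9522 FPKM in control input. The sum of all measured genes was 250969 and 239386 FPKM in that order, so the lower share comes partly from the larger total.

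The abundant members of the large subunit differed by small amounts. RPL8 had 645 FPKM in knockdown input and 687 FPKM in control input, 1.07-fold lower (1.04 to 1.09). RPL13A had 467 FPKM in knockdown input and 500.0 FPKM in control input, also 1.07-fold lower. RPLP0 had 477 FPKM in knockdown input and 482 FPKM in control input. At the low end, RPL17 with 6.84 FPKM in knockdown input and 7.33 FPKM in control input and RPL39, which lines the exit tunnel, with 23.2 and 23.6 FPKM in that order had intervals that hold 1.

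The lowest ratio of the large subunit was that of RPL36A, with 2.24 FPKM in knockdown input and 3.26 FPKM in control input, 1.46-fold lower (1.12 to 1.90), on 103 and 135 reads. RPL9 had 66.8 FPKM in knockdown input and 80.8 FPKM in control input, 1.21-fold lower (1.15 to 1.28). RPL10, one of the last proteins to join the large subunit, had 55.1 FPKM in knockdown input and 65.8 FPKM in control input, 1.19-fold lower (1.14 to 1.25). These differences exceed counting error, and RPL36A and RPL9 are among the genes with a read-through gene or an abundant copy.

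At the upper end of the large subunit RPL28 had 47.6 FPKM in knockdown input and 43.6 FPKM in control input, 1.09-fold higher (1.04 to 1.15). RPL35A had 43.9 FPKM in knockdown input and 40.7 FPKM in control input, 1.08-fold higher, with an interval that only just excludes 1 (1.00 to 1.16). RPL26L1 had 99.6 FPKM in knockdown input and 94.2 FPKM in control input, with an interval that holds 1 (0.945 to 1.18), while its parent RPL26 had 23.7 FPKM in knockdown input and 28.1 FPKM in control input, 1.19-fold lower (1.07 to 1.32). RPL22L1 with 28.3 FPKM in knockdown input and 30.9 FPKM in control input and its parent RPL22 with 31.5 and 34.3 FPKM in that order had the same ratio of 0.92, and the interval lay below 1 for RPL22 alone of the pair. The stalk proteins RPLP0 and RPLP1 had ratios of 0.9904 (0.972 to 1.01) and 1.01 (0.975 to 1.04), both holding 1, and RPL11 was 1.08-fold lower (1.04 to 1.13).

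In the small subunit RPS12 was among the lowest, with 369 FPKM in knockdown input and 449 FPKM in control input, 1.22-fold lower (1.16 to 1.28). RPS27L had 0.961 FPKM in knockdown input and 1.21 FPKM in control input, with an interval that holds 1 (0.605 to 1.05).

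RPS29 stood out upward, with 26.6 FPKM in knockdown input and 21.5 FPKM in control input, 1.24-fold higher (1.17 to 1.31). RPS4X had 270 FPKM in knockdown input and 249 FPKM in control input, 1.08-fold higher (1.05 to 1.12). RPS10 had the highest ratio, 3.88 FPKM in knockdown input and 2.74 FPKM in control input, but its interval holds 1 (0.969 to 2.09). RPS2, by far the most abundant member with 1464 FPKM in knockdown input and 1519 FPKM in control input, was 1.04-fold lower (1.02 to 1.05). RPS21 had 347 FPKM in knockdown input and 362 FPKM in control input, with an interval that holds 1 (0.917 to 1.001).

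**Figure D3:**
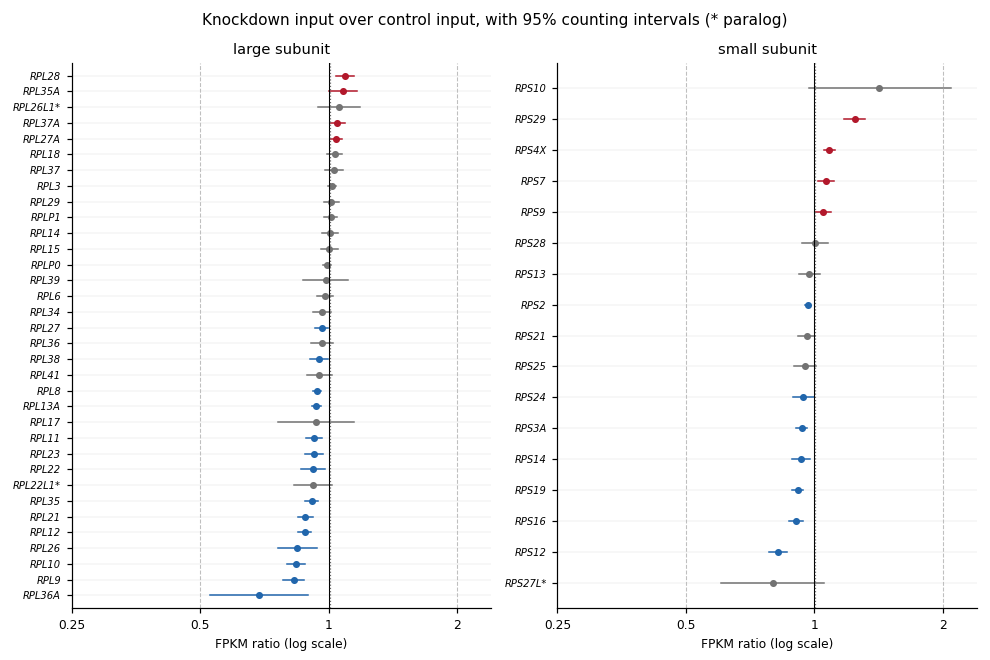
FPKM ratio (log scale) of knockdown input over control input for members in the knockdown table, drawn as in the co-culture plot, with the dotted line at the median of all genes. Most members lie just left of 1, and RPS29 is the one with the highest interval above 1.

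The related lists differed as little in the input RNA. Of the 4 proteins outside the pattern 1 was above 0, with a median of -0.05. Other TOP mRNAs were above 0 in 3 of 21 with a median of -0.06, assembly factors in 28 of 51 with a median of 0.03, polymerase I factors in 9 of 12 with a median of 0.05 and TOP mRNA regulators in 5 of 12 with a median of -0.09. No gene of these lists passed 2-fold on the log2(FPKM + 1) scale. By the plain FPKM ratio TAF1A, a polymerase I factor, was past it, with 1.75 FPKM in knockdown input and 3.87 FPKM in control input, 2.21-fold lower (1.599 to 3.07). Within the members, the 35 with a TOP tract at a listed start had a median of -0.07. The 12 without one there had a median of 0.00 (0.0048 before rounding).

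The m7G peaks of ribosomal protein genes were classed differently from those of most genes. In the authors' deposited table each gene has 1 peak, with a class and a fold enrichment that describe the peak itself, over libraries that the table does not name. The class "exon" held 18 of 34 large subunit peaks (52.9%, exact interval 35.1 to 70.2%) and 14 of 20 small subunit peaks (70.0%, 45.7 to 88.1%), against 18.6% of all 9450 peaks and 12.3% of the 212 peaks in other protein_coding genes at 100 FPKM or more. The 5′ UTR class held 14.7% of large (4.95 to 31.1%) and 20% of small subunit peaks (5.73 to 43.7%), against 49.5% of all peaks and 40.6% of those 212.

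Class and position along the gene gave different shares. Measured to the outermost RefSeq start of the gene, 14 of 34 large subunit peaks (41.2%, 24.6 to 59.3%) and 14 of 20 small subunit peaks (70.0%, 45.7 to 88.1%) lay within 250 nt, against 68.4% of the 8514 peaks with a matched gene. Of the members' exon-class peaks, 18 of 32 lay within 250 nt of the start and 15 of 32 covered it. By distance the small subunit's share was near that of all peaks, and the large subunit's was below it. The peak of RPL3 lay outside its RefSeq gene. RPL26L1 and RPL15 had peaks over another listed start. With every listed start counted, the shares were 15 of 31 large and 12 of 16 small subunit peaks. Only members with a start in the promoter sequences entered these shares, so they are not comparable with the 14 of 34 and 14 of 20 above.

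The large subunit peaks of the 5′ UTR class were those of RPL10, RPL15, RPL21, RPL22L1 and RPL35A, and those of the 3′ UTR class RPL14, RPL27A, RPL29, RPL37 and RPL41, with 6 peaks in coding sequence. In the small subunit RPS9, RPS10, RPS19 and RPS27L were in the 5′ UTR class, RPS21 and RPS24 in coding sequence, and none in the 3′ UTR class. Small nucleolar RNAs sit in introns of many of these genes. Of the 54 peaks 2 overlapped one (3.70%, 0.452 to 12.7%), against 6 of all 9450 peaks (0.0635%). That of RPL39 (SNORA69) was among the 2.

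Pull-down enrichment was lower for the members than for most genes. The median was 7.53-fold for the large and 9.43-fold for the small subunit, against 12.4-fold over all peaks and 11.2-fold over the 212 abundant non-member genes. Within the 5′ UTR class the order was the other way round, with medians of 18.7-fold for 5 large and 18.5-fold for 4 small subunit genes, against 14.9-fold for all 4680 peaks of that class. Enrichment below 3-fold was found in 12 of 34 large and 5 of 20 small subunit peaks, against 10.5% of all peaks.

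Enrichment went with the distance from the start. Within 250 nt the median was 10.8-fold in 14 large subunit peaks and 12.2-fold in 14 small subunit peaks, against 15.4-fold over all. Farther away it was 2.635-fold in 20 large and 1.88-fold in 6 small subunit peaks, against 5.56-fold over all. Across the 54 members Spearman's rho of enrichment with distance was -0.52, a description over genes of the same libraries, and with the input level it was -0.06.

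RPL35A had the strongest enrichment of the large subunit, 59.6-fold at chr3:197950136-197950690, across the start shown above. RPL26L1 reached 43.2-fold, RPL27 39.6-fold and RPL38, which in the mouse affects translation of Hox mRNAs, 39.0-fold. In the small subunit RPS3A reached 47.2-fold at chr4:151099573-151099840, again across its start, RPS10 27.2-fold and RPS9 19.9-fold. Of these, RPL26L1 and RPL27 have no TOP tract at a listed start.

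The weakest large subunit peaks were those of RPL28 at 1.46-fold, RPL13A at 1.52-fold and RPL14 at 1.89-fold. RPS16 was among the weakest of the small subunit at 1.72-fold. None of these lay within 250 nt of the gene start. With a TOP tract at a listed start the median enrichment was 9.43-fold in 35 members, and without one there 9.68-fold in 12.

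**Figure D4:**
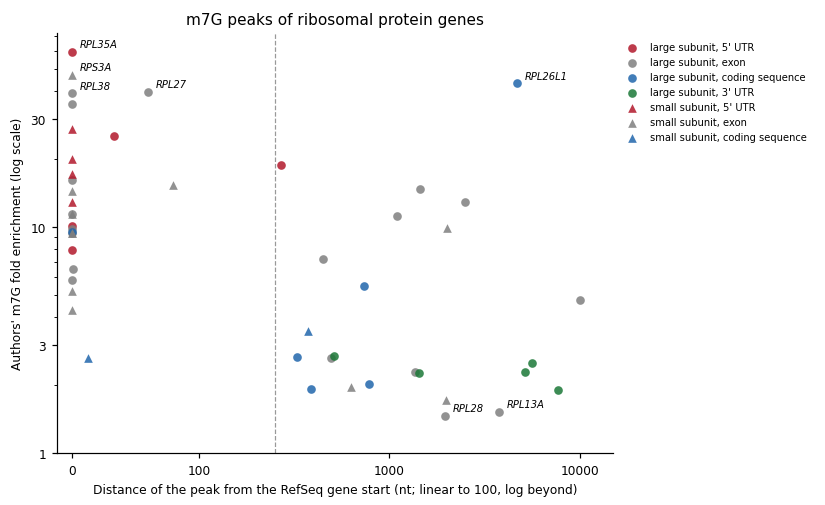
The authors' m7G fold enrichment (log scale) against the distance in nt from the peak to the outermost RefSeq start of its gene (linear to 100 nt, log beyond; 0 where the peak covers the start) for members in that table, circles for the large and triangles for the small subunit, coloured by the authors' class; the dashed line is at 250 nt. Points at the left are mostly above 3-fold, grey exon-class points occur on both sides, and the lowest points lie beyond the line.

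In the authors' table of m7G change between the lines, most members differed little and 12 of 54 passed an FDR of 0.05. The numerator is not stated, and the change was read as knockdown over control; read the other way, every sign below turns round. The median change was -0.03 in each subunit on the log2 scale, against 0.00 (0.0043 before rounding) over all peaks, and the median size of change was 0.21 for the large and 0.30 for the small subunit, against 0.52 over all. RPS27L, the lowest of these members with a mean input of 1.08 FPKM, had the 1 peak that exceeded 1 in size, against 21.1% of all peaks. The members' median input level was 89.6 FPKM, against 7.03 FPKM over all peaks, so these sizes come from unlike levels. The part of the level in the small sizes was not tested. These p-values compare single libraries and cannot cover variation between cultures.

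Past FDR 0.05 in the authors' deposited table, 4 large and 4 small subunit peaks were higher, against 3.07% of all peaks, and 2 of each subunit were lower, against 2.18%. Abundant genes were called more often in this table. In either direction, 22.2% of the members (12.04 to 35.6%) were called, against 5.25% of all peaks but 31.6% of the 212 peaks in other protein_coding genes at 100 FPKM or more. Of the 24 members at that level 6 were called, and of the 30 below it also 6.

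In the authors' deposited table RPS2 had the smallest FDR of all members, 2.51e-29, for a log2 change of 0.34 at a peak enriched 4.31-fold (chr16:1964324-1964860). RPS16 had 0.36 (FDR 0.0331) in the authors' deposited table. Both were called higher, and the peak of RPS16 is among the weakest in enrichment. Called lower were RPS25, with -0.51 (FDR 0.00832), and RPS24, with -0.29 (FDR 0.0468).

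In the large subunit the authors' deposited table called RPL8 higher with 0.26 (FDR 1.07e-07), RPL28 with 0.33 (FDR 0.0166), RPL35 with 0.33 (FDR 0.0302) and RPL10 with 0.33 (FDR 0.0427). Called lower were RPL22L1 with -0.64 (FDR 0.0245) and RPL37A with -0.19 (FDR 0.0363). RPLP1 lay just outside the limit with 0.16 (FDR 0.0501). RPL22L1 was thus the one paralog with a called change, its parent RPL22 having -0.52 (FDR 0.498).

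Several of the largest changes were not called, RPS25 being an exception in the small subunit. RPL34 had 1.00 (FDR 0.676), RPL18 0.72 (FDR 0.186) and RPL14 0.54 (FDR 0.375) at the upper end of the large subunit in the authors' deposited table, and RPL37 -0.86 (FDR 0.531), RPLP0 -0.73 (FDR 0.0724) and RPL27A -0.64 (FDR 0.10) at the lower end. In the small subunit RPS7 had 0.87 (FDR 0.676) and RPS10 0.48 (FDR 0.612), and RPS27L -1.18 (FDR 0.608) and RPS14 -0.48 (FDR 0.55). Among called members RPL10 had higher m7G beside a lower input level, RPL28 had both higher, and RPL37A had lower m7G beside a slightly higher input level. Across members Spearman's rho of m7G change with the input log2 ratio was 0.03 in 34 large and 0.20 in 20 small subunit genes, which share the input libraries.

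**Figure D5:**
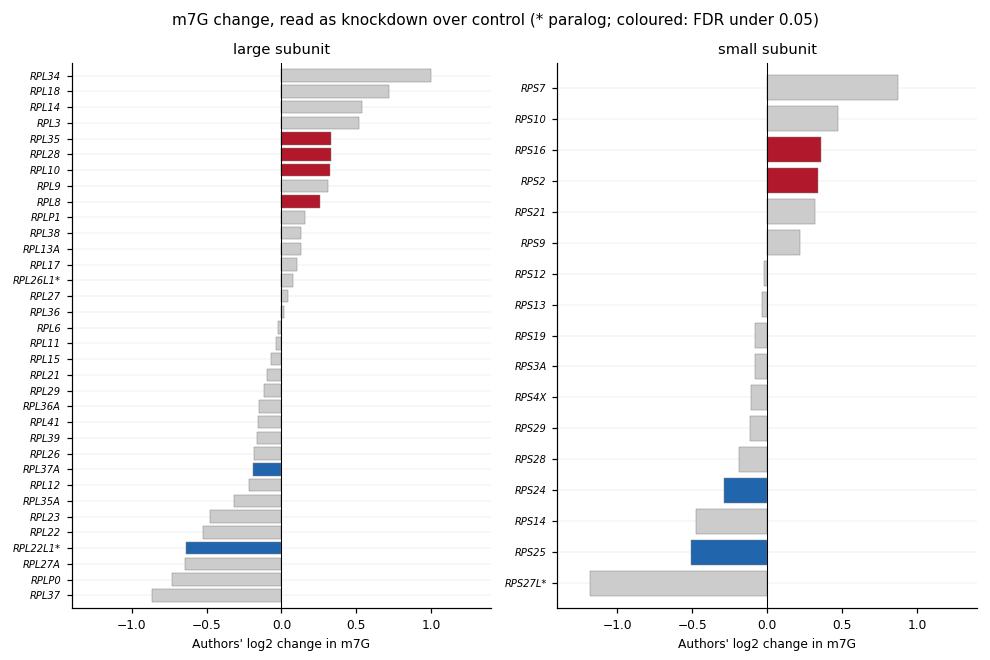
The authors' log2 change in m7G, read as knockdown over control, for the peaks of members, large subunit left and small subunit right; red and blue bars mark an FDR under 0.05, higher and lower, and stars mark paralogs. The coloured bars lie between -0.64 and 0.36, and the longest bars, RPS27L and RPL34, are grey.

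Of the related lists in the same table, other TOP mRNAs had 3 peaks called higher (EEF1D, EIF3K and NACA) and 4 called lower (BTF3, EEF1A1, HNRNPA1 and NPM1) among 21. Assembly factors had 3 higher (DDX21, LTV1 and NOC4L) and 3 lower (DDX10, NIP7 and WDR43) among 51. MTOR, the kinase upstream of TOP mRNA translation, was the one TOP mRNA regulator called, lower by the authors' table with -1.59 (FDR 0.00912), and no polymerase I factor was called among 12. Over all peaks 3.07% were called higher and 2.18% lower, and over the 212 abundant non-member genes 31.6% in either direction, so these counts are not read as particular to the lists.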

How the data were processed

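RNA-seq and m7G pull-down tables of 6 libraries were used, 1 per group, and the members and lists were chosen with earlier results of these data known. Named in the submitters' processing notes are HISAT2 2.1.0, cutadapt 2.5, featureCounts 1.6.3, SAMtools 1.10, HOMER 4.10.4 and DESeq2, and as builds hg38, GRCh38 and GRCm38, giving no roles. The authors deposited FPKM per gene, and for the knockdown table the FPKM unit was inferred from the values. Each gene also has the authors' log2 fold change, p-value and adjusted p-value, per the file headers. For each peak the authors gave the fold enrichment as a ratio, a log2 change, the p-value and FDR of that change as log10, and a score that is the log10 FDR of the peak, per the file headers. The peak caller was not given in the sources used here.

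Genes averaging 1 FPKM or more were compared as log2((FPKM + 1)/(FPKM + 1)), which understates low genes; printed folds are ratios of FPKM. Within a relative tolerance of 1e-12, the FPKM ratio was a fraction of whole numbers times 1 constant per table. This held for 20806 of 20806 co-culture genes that were above 0 in each library, and for 9348 of 9348 knockdown genes. Library sizes and the smallest whole reads that the values allow were recovered from them; RPS15A had none. PCR copies are not independent molecules. Because the values were FPKM and each group held 1 library, no count test was run. Recovery was tested on simulated data. Peak positions are those of the file, and 53 of 54 member peaks fell in their RefSeq GRCh38.p14 gene. Python 3.11.15, pandas 2.3.3 and scipy 1.17.1 were used.

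Some of these genes enter the counts but are not reported here by name or drawn. Named with values were, per table and subunit, the 3 with the highest and the 3 with the lowest log2 ratio, level, enrichment and m7G change, those in a peak class of 5 or fewer, every member with an FDR under 0.05, the paralogs with their parents, and RPSA, the stalk proteins, RPS6, RPL5 and RPL11. Members of the related lists were named past 2-fold or FDR 0.05. Other pseudocounts, filters, scalings, thresholds, peak classes and windows were tried as alternatives.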

Additional observations from a re-analysis of the deposited data

How the results depend on the processing

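No paired analysis was possible because each group held 1 library. Of 58 alternative values, 41 kept their direction and were counted as the same, 13 moved and 4 reversed. Not all of the 41 were close to the reported value. Rescaled without ribosomal protein genes, 31 large subunit genes were lower after knockdown, against 22 as reported. On the authors' scaling 33 large subunit genes were higher in S-CAFs-w13, against 41. The cause was not tested unless the alternative's construction gives it. Rescaled without the mitochondrial genome, 27 large and 17 small subunit genes were higher in S-CAFs-w13, against 41 and 27 as reported. With counting intervals required, 14 large and 8 small subunit genes were lower after knockdown, against 22 and 13, since fewer genes qualify. Peaks called higher in m7G numbered 8 in the large subunit at an unadjusted p-value under 0.05 and 1 at an FDR under 0.01, against 4; in the 5′ UTR class alone they numbered 1 in the large and 0 in the small subunit. Read as control over knockdown, the calls reverse by construction and 2 of each subunit are higher. The median enrichment over that of all peaks was 0.607 for the large and 0.760 for the small subunit; within the 5′ UTR class it reversed to 1.26 and 1.24, and within coding sequence it was 0.307 for 2 small subunit peaks. Peaks near the 5′ end made up 14.7% and 20% by class, but 41.2% and 70.0% within 250 nt of the RefSeq start, and the same within 100 nt. Single libraries, genes measured only where a peak was listed, copies and read-through genes that share reads, and unnamed IP libraries limit all of these values.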

Other observations

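The 54 members in both tables were also set side by side across the experiments, whose tables were normalized separately, so these are levels and not a comparison of conditions. The FPKM in control input was a median of 1.79 times that in DLD1-W13CM, with a Spearman's rho of 0.85 across the 54 genes. Single members departed from that: RPL26L1 had 94.2 FPKM in control input and 15.5 FPKM in DLD1-W13CM, 6.09 times as much. RPS21 had 362 and 59.8 FPKM in that order, 6.05 times as much, RPS19 5.02 times and RPL35 4.92 times. At the other end RPL39 had 23.6 FPKM in control input and 43.3 FPKM in DLD1-W13CM, 0.545 times as much, and RPL15 0.708 times. What sets the experiments apart was not tested.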
